A study of Mus musculus with 6 samples.

Results

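The guanylate-binding proteins (GBP) of the mouse were followed in CT26 tumors by gene, by tumor and by chromosome cluster. The set was defined by gene name and lists 8 genes, Gbp2, Gbp3, Gbp4, Gbp5, Gbp6, Gbp7, Gbp8 and Gbp9. Of these, 7 had a column among the 23557 genes of the expression table and Gbp6 was not analysed here. The 3 other GBP genes of the table, Gbp2b, Gbp10 and Gbp11, are given beside them for context.

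CT26 is a colon carcinoma line from BALB/c mice. In this study 500000 CT26 cells were placed under the skin of 7-week-old female BALB/c mice, which then received either NaCl alone or the kinase inhibitor H89 in NaCl at 10 mg/kg by intraperitoneal injection. Whole tumors were taken on day 14 after the cells were injected, and RNA of 3 NaCl and 3 H89-treated tumors was sequenced. All 6 tumors carried the same cell line in the same strain and grew outside the colon, and the labels name no allele or transgene in either group.

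GBPs are large GTPases that cells make in response to interferons, above all interferon-gamma. They bind membranes around intracellular bacteria and parasites, assemble into coats there, and help to release bacterial products to the caspase-11 and AIM2 inflammasomes. Mouse GBP genes lie side by side in a cluster on chromosome 3 and another on chromosome 5, and in tumors their RNA is often read as a sign that interferon signaling is active in cancer, stromal or immune cells. In whole tumors, more cells of a type that makes a GBP and more GBP RNA per cell cannot be told apart.

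Each tumor gave between 27067349 and 31958793 estimated counts, which were expressed as CPM, counts divided by the tumor's library size with edgeR's scaling between tumors. Of the 23557 genes, 13118 had a mean of at least 0.5 CPM and were tested, and all 7 GBP members were among them, with no member below 4.28 CPM in any tumor. The tumor check by markers gave keratin Krt20 at 65.8 to 103 CPM, whereas the epithelial genes Epcam, Cdx2 and Vil1 were below the filter. The 3 tumors of a group came from 3 mice, and p-values set the difference between groups against the spread between these tumors.

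On GRCm38, by the GENCODE M21 annotation, the chromosome 3 cluster runs over 144.0 kb on the plus strand in the order Gbp5 (chr3:142493978-142522344), Gbp7 (chr3:142530342-142550149), Gbp3 (chr3:142560026-142573209), Gbp2b (chr3:142594847-142619179) and Gbp2 (chr3:142620602-142638008). The chromosome 5 cluster runs over 332.3 kb on the minus strand and holds Gbp8 (chr5:105014150-105139540), Gbp9 (chr5:105077630-105139539), Gbp4 (chr5:105115767-105139586), Gbp10 (chr5:105215699-105239533) and Gbp11 (chr5:105323042-105346472). The annotated spans of Gbp8, Gbp9 and Gbp4 overlap, exons included, and exons of Gbp7 overlap those of Gm43802. These spans are of whole genes, introns included.

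**Figure D1:**
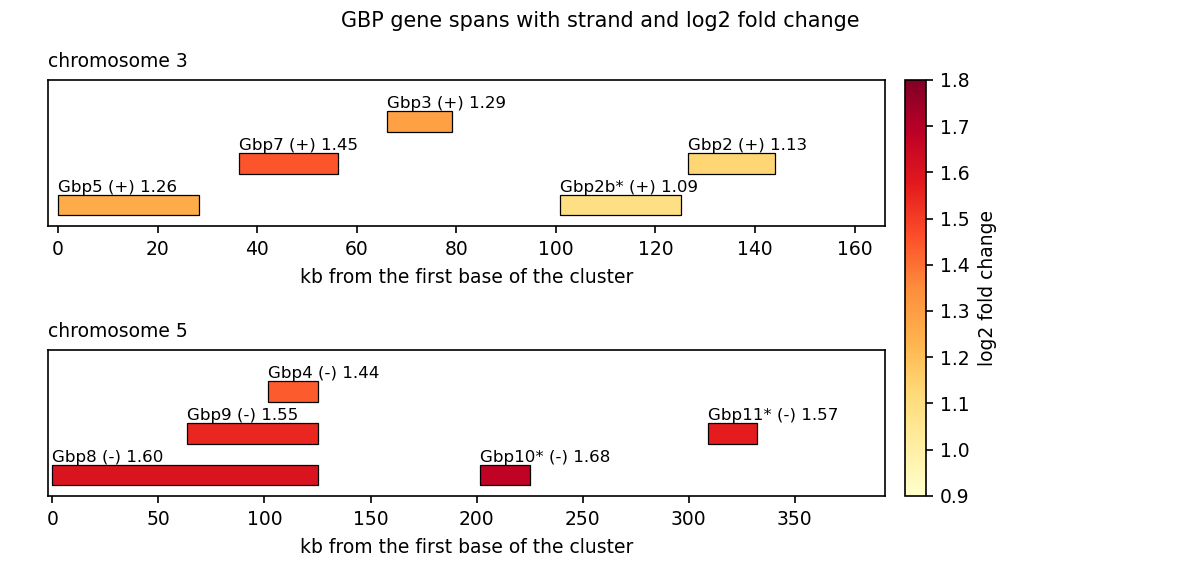
Map of both GBP clusters, with each gene's span in kb from the first base of its cluster, its strand in brackets and its log2 fold change of H89 against NaCl in the color and the number; asterisks mark GBP genes outside the set. Values run from 1.09 for Gbp2b to 1.45 for Gbp7 on chromosome 3, and from 1.44 for Gbp4 to 1.68 for Gbp10 on chromosome 5.

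Promoters are shown because GBP genes are textbook interferon targets and their upstream letters can be set beside the RNA values. RefSeq windows on GRCm38.p6 (250 bases before to 50 bases after a start) were on hand for the 5 chromosome 3 genes, in 6 windows. They were searched on both strands for the core of the interferon-stimulated response element (ISRE), GAAANNGAAA, read on the other strand as TTTCNNTTTC, and for the gamma-activated site (GAS), TTCNNNGAA. The windows of the 4 members on chromosome 3, all on the plus strand and written 5′ to 3′, have ISRE and GAS matches in capitals and are Gbp2 at chr3:142620413-142620712, Gbp3 at chr3:142559794-142560093, Gbp5 at chr3:142496684-142496983 and Gbp7 at chr3:142530086-142530385.
Gbp2: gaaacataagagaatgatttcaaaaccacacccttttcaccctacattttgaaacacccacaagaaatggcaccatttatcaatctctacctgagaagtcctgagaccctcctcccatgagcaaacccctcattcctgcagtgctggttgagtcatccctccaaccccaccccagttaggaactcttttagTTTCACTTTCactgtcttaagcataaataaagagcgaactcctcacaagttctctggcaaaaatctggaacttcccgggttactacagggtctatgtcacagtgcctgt
Gbp3: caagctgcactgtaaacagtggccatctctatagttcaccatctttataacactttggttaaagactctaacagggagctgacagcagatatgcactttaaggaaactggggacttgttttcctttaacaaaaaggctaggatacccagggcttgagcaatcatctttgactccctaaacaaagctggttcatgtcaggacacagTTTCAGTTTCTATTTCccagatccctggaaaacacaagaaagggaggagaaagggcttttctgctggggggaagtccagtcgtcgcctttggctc
Gbp5: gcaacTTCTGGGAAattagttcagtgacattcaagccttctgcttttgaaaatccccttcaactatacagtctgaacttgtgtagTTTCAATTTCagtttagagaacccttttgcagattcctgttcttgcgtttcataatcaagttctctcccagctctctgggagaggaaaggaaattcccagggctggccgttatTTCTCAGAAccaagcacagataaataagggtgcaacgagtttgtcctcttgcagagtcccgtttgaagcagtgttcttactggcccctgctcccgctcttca
Gbp7: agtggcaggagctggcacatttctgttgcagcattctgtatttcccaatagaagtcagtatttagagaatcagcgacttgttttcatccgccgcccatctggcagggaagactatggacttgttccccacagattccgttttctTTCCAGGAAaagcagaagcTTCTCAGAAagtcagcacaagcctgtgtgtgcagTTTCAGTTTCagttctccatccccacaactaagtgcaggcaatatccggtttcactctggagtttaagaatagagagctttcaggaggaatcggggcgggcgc

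Each of the 5 genes held an ISRE match in 1 window, against 3.4% of 32851 mouse promoter windows of the same length. In Gbp2 the match lay 59 to 50 bases before the start, and in Gbp7 53 to 44 bases before it. In Gbp3 a pair of matches overlapped, at 45 to 36 and at 39 to 30 bases before the start, and its second window at chr3:142560106-142560405 had none. In Gbp5 the match was farther from the start, at 165 to 156 bases, and in Gbp2b at 137 to 128 bases. GAS matches, found in 8.3% of all windows, were in Gbp5 and Gbp7 and in no other of the 5, and both genes held 2 of them: at 245 to 237 and 52 to 44 bases before the start in Gbp5, and at 106 to 98 and 87 to 79 bases in Gbp7. An ISRE with a GAS match in the same window was seen in 0.5% of all windows. Letters that match are a description of the window and do not show binding.

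**Figure D2:**
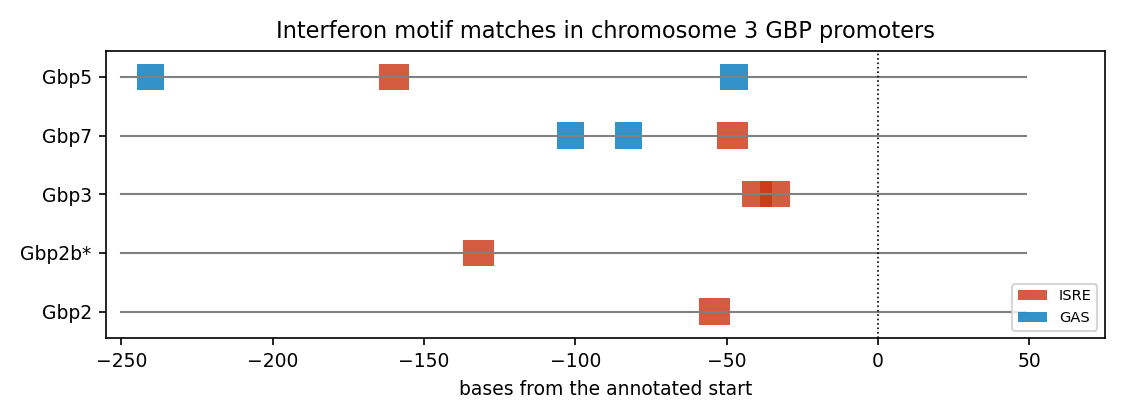
Positions of ISRE and GAS letter matches in 1 RefSeq promoter window of each chromosome 3 GBP gene (the first for Gbp3), in bases from the annotated start, which is at 0. Each of the 5 genes has an ISRE match, and Gbp5 and Gbp7 also have 2 GAS matches each.

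The comparison of H89-treated with NaCl tumors asked whether GBP RNA differed with treatment. All 7 members had a higher mean in H89-treated than in NaCl tumors, by 1.13 to 1.60 on the log2 scale, and in no member did the difference pass the threshold of 0.05 in the quasi-likelihood test of edgeR after Benjamini-Hochberg adjustment. Tumors of the same group also differed widely from each other: NaCl tumor 3 was the lowest of all 6 for every member, H89-treated tumors 1 and 3 were the highest, and H89-treated tumor 2 lay close to NaCl tumors 1 and 2 in all but Gbp8 and Gbp9.

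On chromosome 3, Gbp2, which coats the vacuole of Toxoplasma, was measured at 265, 182 and 42.2 CPM in NaCl tumors 1, 2 and 3 and at 413, 165 and 495 CPM in H89-treated tumors 1, 2 and 3. The groups overlapped, since H89-treated tumor 2 was below NaCl tumors 1 and 2. The means were 163 ± 113 and 357 ± 172 CPM (SD, n = 3 each), with a log2 fold change of 1.13 (SE 0.62) with an adjusted p of 0.293 in edgeR's quasi-likelihood test. Gbp2 was the member with the smallest fold change, and its neighbor Gbp2b was close to it at 1.09 (SE 0.64; adjusted p = 0.327).

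Gbp3, another GBP that is recruited to parasite vacuoles, stood at 96.4, 75.8 and 27.8 CPM in NaCl tumors and at 196, 78 and 214 CPM in H89-treated tumors. H89-treated tumor 2 was between NaCl tumors 1 and 2, and the other H89-treated tumors were above all NaCl tumors. The log2 fold change was 1.29 (SE 0.49), and the adjusted p was 0.161 in edgeR's quasi-likelihood test. Gbp5, which is known for promoting NLRP3 inflammasome assembly and which carries a prenyl anchor as Gbp2 does, was measured at 32.5, 25.6 and 9.14 CPM in NaCl tumors and at 56.4, 28.1 and 75.9 CPM in H89-treated tumors. Its groups overlapped in the same way, and the log2 fold change was 1.26 (SE 0.48; adjusted p = 0.162).

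Gbp7, known for links to the NADPH oxidase and to autophagy proteins in infected macrophages, was the only member on chromosome 3 whose groups did not overlap. It was measured at 140, 121 and 51 CPM in NaCl tumors and at 349, 144 and 360 CPM in H89-treated tumors. The gap was narrow, 144 CPM in the lowest H89-treated tumor against 140 CPM in the highest NaCl tumor. The log2 fold change was 1.45 (SE 0.43), with an adjusted p of 0.105 in edgeR's quasi-likelihood test, and an exact two-sided permutation test gave p = 0.1, the smallest that 3 against 3 tumors allow.

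On chromosome 5, Gbp4, the most abundant GBP of that cluster, was measured at 130, 109 and 23.7 CPM in NaCl tumors and at 252, 118 and 344 CPM in H89-treated tumors. Its groups overlapped because H89-treated tumor 2 was below NaCl tumor 1. The means were 87.5 ± 56.3 and 238 ± 114 CPM (SD, n = 3 each), with a log2 fold change of 1.44 (SE 0.59) and an adjusted p of 0.183 in edgeR's quasi-likelihood test.

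Gbp9, which is also recruited to parasite vacuoles, was measured at 23.8, 22.9 and 11.1 CPM in NaCl tumors and at 55.6, 36.3 and 77.4 CPM in H89-treated tumors. Every H89-treated tumor was above every NaCl tumor, H89-treated tumor 2 included. The means were 19.3 ± 7.1 and 56.4 ± 20.6 CPM, with a log2 fold change of 1.55 (SE 0.34) and the adjusted p was 0.0637 in edgeR's quasi-likelihood test. Gbp8, the least abundant member, was measured at 9.68, 7.8 and 4.28 CPM in NaCl tumors and at 25.8, 13.7 and 26.4 CPM in H89-treated tumors. Here too the groups did not overlap, and the log2 fold change of 1.60 (SE 0.34) was the highest among the members, and its adjusted p was 0.0615 in the same test. For both genes the exact two-sided permutation test gave p = 0.1, the smallest possible.

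Gbp10 and Gbp11, the chromosome 5 genes outside the set, were also higher in every H89-treated tumor. Gbp10 was measured at 17.8, 14.9 and 4.28 CPM against 43.5, 18.1 and 56.8 CPM, a log2 fold change of 1.68 (SE 0.54; adjusted p = 0.12 in the edgeR fit). Gbp11 was barely expressed, at 1.33, 1.53 and 0.549 CPM against 3.46, 1.61 and 5.05 CPM, a log2 fold change of 1.57 (SE 0.49; adjusted p = 0.112). The lowest H89-treated tumor was close to the highest NaCl tumor in both.

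**Figure D3:**
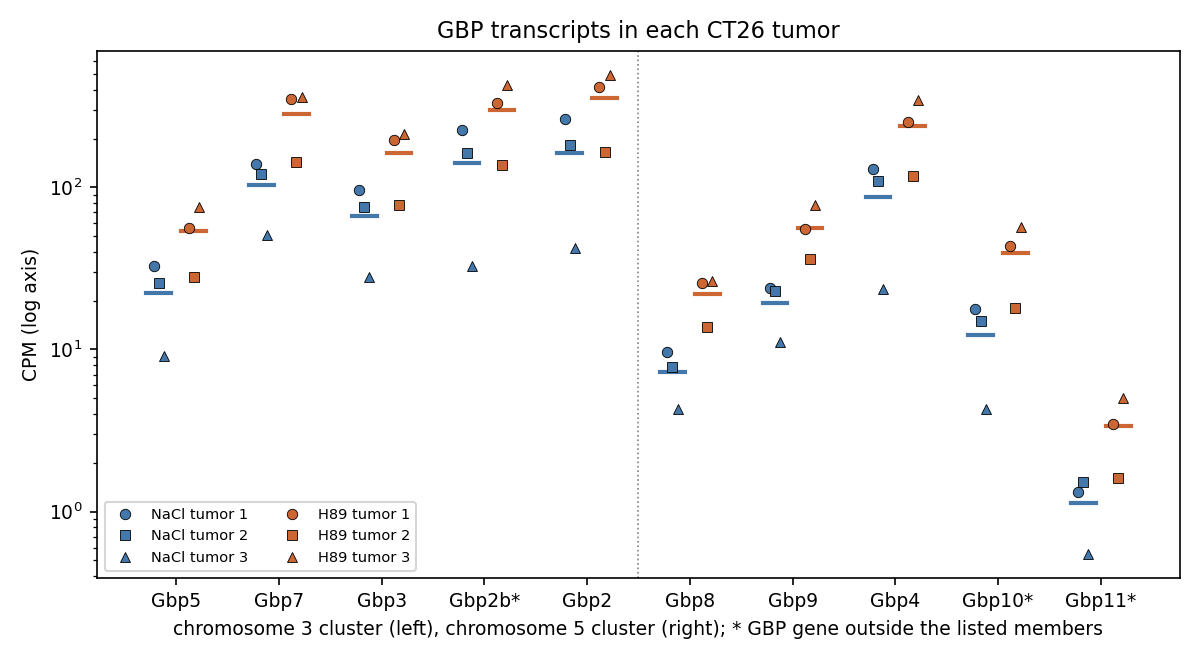
Levels of each GBP gene in CPM (log axis) by tumor, with NaCl tumors in blue and H89-treated tumors in orange, 3 a group, and a line at each group's mean; asterisks mark GBP genes outside the set. NaCl tumor 3 is the lowest point of every member, and H89-treated tumor 2 lies near NaCl tumors 1 and 2 for Gbp2, Gbp3, Gbp4, Gbp5 and Gbp7.

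Across the members, 0 of 7 passed the adjusted threshold in either direction in edgeR's quasi-likelihood test, where 1.59% of the 13118 tested genes did. At an unadjusted p under 0.05, 6 of the 7 were higher, Gbp2 being the exception, where 13.1% of all tested genes were. When tumors were scaled by total count alone, that background was 17.5% and the count of members stayed at 6. H89-treated tumors were all above NaCl tumors in 3 of 7 members, Gbp7, Gbp8 and Gbp9, and in 15.2% of all tested genes. The median log2 fold change of the members was 1.44, against 0.004 over all tested genes, of which 6638 were above 0. With DESeq2 and Benjamini-Hochberg adjustment, 2 of the 7 members were called higher, Gbp8 (adjusted p = 4.27e-05) and Gbp9 (adjusted p = 0.0125), where 5.31% of all tested genes were, and with Bonferroni adjustment Gbp8 was called (0.00488), where 0.701% were.

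**Figure D4:**
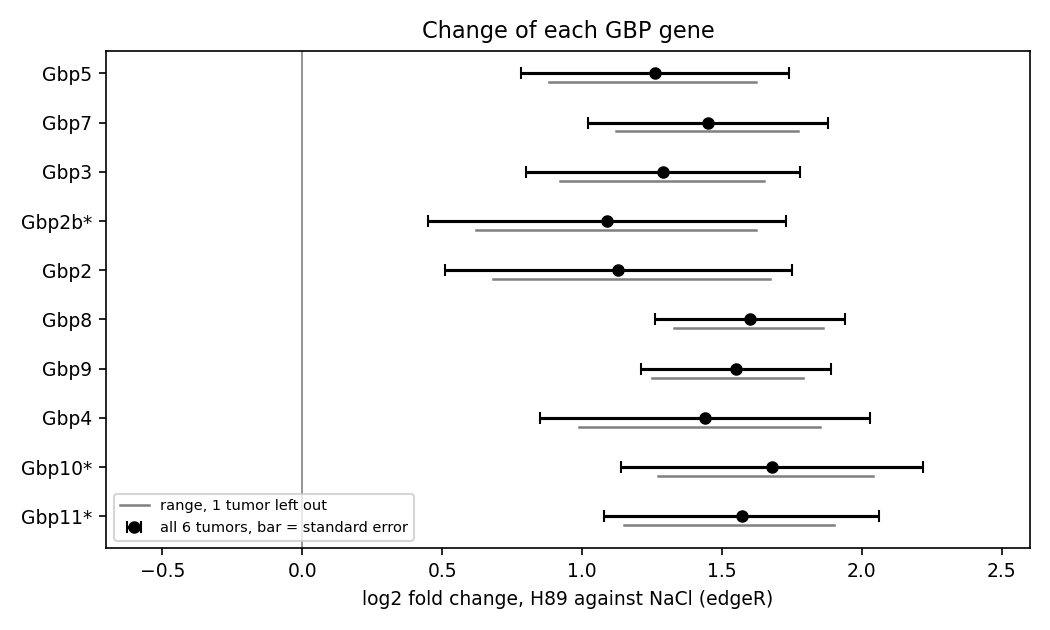
Log2 fold change of H89 against NaCl for each GBP gene as a point with its standard error from edgeR, in order along both clusters, with a grey line below it for the range over the fits that leave out 1 tumor; asterisks mark GBP genes outside the set. Every point is above 0, from 1.09 for Gbp2b to 1.68 for Gbp10, and the bars are longest for Gbp2b and Gbp2 (0.64 and 0.62).

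Which tumors entered the comparison moved these counts. Gbp7, Gbp8 and Gbp9 kept an unadjusted p under 0.05 with any 1 tumor left out, whereas Gbp3 and Gbp5 did so in 2 of 6 such fits. The count of members at that threshold fell from 6 to 3 when NaCl tumor 2, H89-treated tumor 1 or H89-treated tumor 3 was left out, where 1325 of 13160, 1624 of 13079 and 1391 of 13084 tested genes were higher at that threshold, and was 4 when NaCl tumor 3 was, where 1260 of 13158 were. It was 7 when NaCl tumor 1 or H89-treated tumor 2 was left out, where 1574 of 13151 and 1368 of 13093 were. The median log2 fold change was 0.99 when NaCl tumor 3 was dropped and 1.77 when H89-treated tumor 2 was dropped. In the 6 fits the log2 fold change of Gbp8 ran from 1.33 to 1.86 and that of Gbp9 from 1.25 to 1.79, while that of Gbp2 ran from 0.68 to 1.67.

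Summed over a cluster, the 4 members on chromosome 3 reached 534, 404 and 130 CPM in NaCl tumors and 1010, 414 and 1150 CPM in H89-treated tumors. The means were 356 ± 206 and 858 ± 390 CPM (SD, n = 3 each), a ratio of 2.41. The 3 members on chromosome 5 together reached 164, 139 and 39.1 CPM in NaCl tumors and 333, 168 and 448 CPM in H89-treated tumors, with means of 114 ± 66 and 316 ± 141 CPM and a ratio of 2.77. Both clusters were highest and lowest in the same tumors. The chromosome 3 sum was 3.27, 2.89 and 3.32 times the chromosome 5 sum in NaCl tumors and 3.04, 2.47 and 2.56 times in H89-treated tumors, and these ranges overlapped.

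The spread between tumors of 1 group was wide for all members but not equal. From NaCl tumor 3 to NaCl tumor 1, both untreated with H89, Gbp2 differed 6.29-fold and Gbp4 5.48-fold, whereas Gbp8 differed 2.26-fold and Gbp9 2.14-fold. From H89-treated tumor 2 to H89-treated tumor 3 the folds ran from 1.93 in Gbp8 to 3.01 in Gbp2. Between H89-treated tumor 2 and NaCl tumor 1, Gbp2 was at 0.621 of the NaCl level and Gbp9 at 1.52 times it. Gbp8 and Gbp9, the members with the smallest adjusted p, were thus those that differed least among NaCl tumors.

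**Figure D5:**
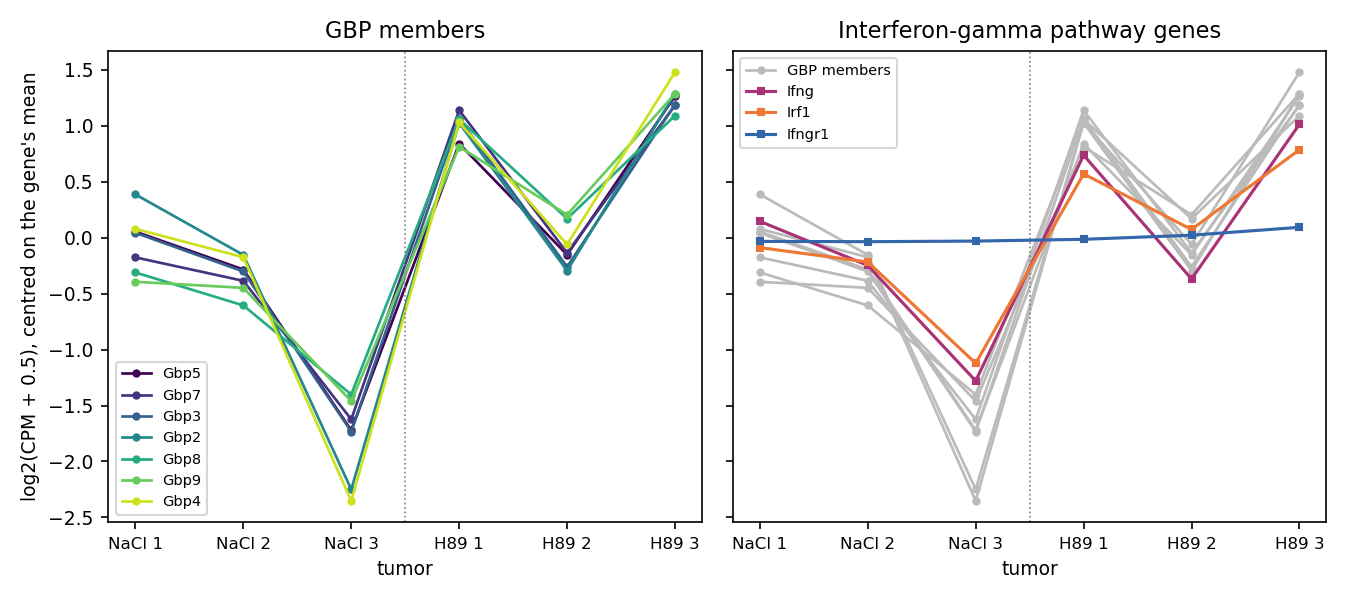
Levels of the GBP genes across the 6 tumors as log2(CPM + 0.5) centered on each gene's mean, which shows differences and not absolute levels, with the 7 members on the left and again in grey on the right beside Ifng, Irf1 and Ifngr1. The mean over the members was -0.04, -0.34 and -1.79 in NaCl tumors 1 to 3 and 1.00, -0.08 and 1.26 in H89-treated tumors 1 to 3.

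Compared per kb of the longest coding transcript, Gbp2 had the highest level of the GBP genes, at 64.8 ± 44.8 CPM per kb in NaCl and 142 ± 68.4 CPM per kb in H89-treated tumors (SD, n = 3 each). Gbp3 followed after Gbp2b, at means of 24.9 and 60.7 CPM per kb in NaCl and H89-treated tumors. Gbp4 (19.3 and 52.4 CPM per kb) and Gbp7 (18.5 and 50.6 CPM per kb) could not be put in order, since Gbp4 was above Gbp7 in 4 of 6 tumors. Gbp5 (7.33 and 17.5 CPM per kb), Gbp9 (4.4 and 12.9 CPM per kb) and Gbp8 (2.95 and 8.94 CPM per kb) were lower, and Gbp5 was above Gbp9 in 6 of 6 tumors. Per kb of coding sequence, Gbp2 and Gbp2b still had the highest means, although Gbp7 was above both in NaCl tumor 3, and Gbp7 and Gbp4 then stood above Gbp3. On that scale Gbp5 was above Gbp9 in 4 of 6 tumors, with means of 30.2 and 30.4 CPM per kb in H89-treated tumors, so that the order below Gbp2 and Gbp2b depended on the length used.

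GBP genes are near copies of each other in places, and reads from shared stretches can be split between them. Of the 31-base stretches of its transcripts, Gbp5 among the members shared the fewest with other genes (96.9% in no other gene), followed by Gbp2 at 95.1% and Gbp3 at 94.4%. The share was 85.3% in Gbp7, with 10.8% of its stretches also in the overlapping Gm43802, and 85.1% in Gbp4. It was lower in Gbp9 (81.7%) and in Gbp8 (68.9%), whose closest match was Gbp11 at 15.5%. In Gbp10, 80.8% of the stretches are also in Gbp6 and 76.7% in Gm43302, whose exons overlap those of Gbp10. Gm43302 also holds 6.8% of the stretches of Gbp4, 10.0% of those of Gbp8 and 8.4% of those of Gbp9. Among the members, Gbp8 and Gbp9, those with the smallest p, are thus the least certain as to gene.

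Other GTPase families that interferons induce together with GBPs, and that act on the same vacuoles, were described from lists. Of 14 listed immunity-related GTPases (IRG), 13 were tested, and all 13 were higher in H89-treated tumors, with a median log2 fold change of 1.18. At an unadjusted p under 0.05 there were 10, where 13.1% of all tested genes were higher. In edgeR's quasi-likelihood test 2 passed the adjusted threshold, where 1.59% of all tested genes did in either direction. The 2 were 9930111J21Rik2, at 47.8, 53.2 and 49.4 CPM against 99, 87.8 and 84.4 CPM (log2 fold change 0.85, SE 0.09, adjusted p = 0.0288), and F830016B08Rik, at 5.72, 4.25 and 3.22 CPM against 18.9, 13.3 and 20.6 CPM (2.00, SE 0.25, adjusted p = 0.0407). The groups did not overlap in either gene, and in 9930111J21Rik2 NaCl tumor 3 lay between the other NaCl tumors, unlike in the GBPs. Leaving out any single tumor put F830016B08Rik above the threshold (adjusted p of 0.0667 to 0.13) and 9930111J21Rik2 in all cases but H89-treated tumor 3 (0.0448 to 0.13), while both log2 fold changes stayed above 0. In these fits only 0 to 12 of all tested genes passed the adjusted threshold, against 208 of 13118 with all 6 tumors. The next in the list by p, Gm4951, had a log2 fold change of 1.38 (adjusted p = 0.0877). The giant GTPase Gvin2, 1 tested of 7 listed, was at 86.7, 82 and 41.7 CPM against 186, 114 and 296 CPM, with means of 70.2 ± 24.7 and 199 ± 91.6 CPM (SD, n = 3 each) and an adjusted p of 0.08 in the edgeR fit.

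Upstream of the GBPs, 16 of 17 listed interferon ligands, receptors, kinases and factors were tested, and 15 were higher. At an unadjusted p under 0.05 there were 5 of them, where 13.1% of all tested genes were higher. The adjusted threshold was passed by 0 in edgeR's quasi-likelihood test, and the median log2 fold change was 0.27. Stat2 (1.23, SE 0.31, adjusted p = 0.08) and Irf9 (0.81, SE 0.20, adjusted p = 0.08), which encode parts of the factor that binds the ISRE, had the smallest p. Irf1, an interferon-induced factor that binds GBP promoters, was at 117, 107 and 56.9 CPM in NaCl and at 185, 131 and 215 CPM in H89-treated tumors (0.92, SE 0.28, adjusted p = 0.106).

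Ifng, the ligand that induces GBPs most strongly and a gene named after its values were seen, was close to the limit of the depth, at 1.04, 0.672 and 0.0731 CPM in NaCl tumors and 1.82, 0.578 and 2.31 CPM in H89-treated tumors, which rest on between 2.0 and 76.0 estimated counts a tumor. NaCl tumor 3, lowest for every GBP member, was also the lowest for Ifng, and H89-treated tumor 2 was below NaCl tumors 1 and 2. The log2 fold change was 1.39 (SE 0.74; adjusted p = 0.283 in the edgeR fit). Ifngr1, a chain of the interferon-gamma receptor that was also named after its values were seen, was at 53.3, 53.2 and 53.4 CPM against 54, 55.4 and 58.2 CPM (0.07, SE 0.07, adjusted p = 0.6), without the dip of NaCl tumor 3. The part of Ifng in the GBP levels was not tested.

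The lists of genes that place GBPs on membranes or act with them went in both directions. Of 14 listed ATG conjugation and ubiquitin genes, 4 were higher and 10 lower, with 2 and 8 at an unadjusted p under 0.05 and 0 past the adjusted threshold in edgeR's quasi-likelihood test, and the median log2 fold change was -0.21. Of all tested genes 13.1% were higher and 11.9% lower at the unadjusted threshold. With total count scaling 9 of the 14 were lower, 5 of them at an unadjusted p under 0.05 in edgeR, where 905 of 13118 tested genes were lower at that threshold. Sqstm1, an autophagy receptor for ubiquitin-marked cargo, was at 563, 425 and 614 CPM in NaCl and at 269, 311 and 362 CPM in H89-treated tumors (-0.77, SE 0.16, adjusted p = 0.0608), and Rnf213, a ubiquitin ligase induced by interferon, was at 136, 166 and 126 CPM against 242, 190 and 282 CPM (0.74, SE 0.16, adjusted p = 0.0636). Map1lc3b, which encodes LC3B, had a log2 fold change of -0.33 (adjusted p = 0.0888).

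The inflammasome and pyroptosis list, downstream of GBPs in infected cells, had 7 of 10 higher, with a median of 0.32. At an unadjusted p under 0.05 there were 3, where 13.1% of all tested genes were higher, and 0 were past the adjusted threshold. Ninj1, which ruptures the membrane of dying cells, was at -0.37 (adjusted p = 0.0689 in the edgeR fit), the DNA sensor Aim2 at 0.39 (adjusted p = 0.121), and Casp1 at 43.4, 43.8 and 26.8 CPM against 60.1, 46.5 and 65.8 CPM (0.60, adjusted p = 0.134). Of the 5 prenylation genes, whose products attach the lipid anchor of proteins such as Gbp2 and Gbp5 or process them afterwards, 2 were higher, 3 lower (1 and 4 with median ratio scaling) and 0 passed even an unadjusted p of 0.05 in edgeR or in limma. The 3 with the smallest p, Icmt, Rce1 and Fnta, had log2 fold changes of -0.13, -0.20 and -0.11.

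Immune cell content was set beside the GBPs by marker lists. The summed T cell markers were at 36.1, 20.5 and 16.4 CPM in NaCl tumors and at 55.4, 30.8 and 77.6 CPM in H89-treated tumors, and 8 of 8 were higher, 5 at an unadjusted p under 0.05 (3 with quantile normalization in limma). The summed NK and cytotoxic cell markers were at 103, 63.9 and 19.2 CPM against 94.3, 62.3 and 189 CPM, with 7 of 7 higher and 3 at that threshold (2 with quantile normalization in limma). Both sums overlapped between groups. NaCl tumor 3 was the lowest for both lists as it was for the GBPs. Dendritic cell markers summed to 13 to 15.4 CPM in NaCl and 18.2 to 25.7 CPM in H89-treated tumors, B cell markers to 1.26 to 1.79 and 2.03 to 3.19 CPM, and neutrophil markers to 16.2 to 20.5 and 20.3 to 34.5 CPM. Of 6 dendritic cell markers 4 were tested, and all 4 were higher at an unadjusted p under 0.05 (2 with quantile normalization in limma). Of 4 B cell markers only 2 were tested, and 2 were higher, 1 at that threshold (0 with quantile normalization in limma). Of the 4 tested neutrophil markers 2 were higher (Csf3r and Cxcr2) and 2 lower (S100a8 and S100a9), with a median log2 fold change of -0.2. The macrophage markers, at 1260 to 2080 and 1700 to 2020 CPM, and the general leukocyte markers, at 377 to 463 and 403 to 582 CPM, overlapped between groups, as did the neutrophil markers. Of the 10 macrophage and monocyte markers 9 were higher, 2 at an unadjusted p under 0.05, with a median log2 fold change of only 0.11. Of the 5 general leukocyte markers 4 were higher, 2 at that threshold, with a median of 0.33. In edgeR 13.1% of all tested genes were higher at that threshold, and 9.84% with quantile normalization in limma. Ptprc, at 25.2, 31.5 and 29.9 CPM against 48.2, 47.2 and 78.8 CPM, and the monocyte receptor Ccr2, at 25.9, 39.8 and 23.8 CPM against 49.6, 52.8 and 67.8 CPM, did not overlap between groups, and both were chosen for naming after their values were seen. All other markers of their lists overlapped between groups. Of all tested genes 15.2% had every H89-treated tumor above every NaCl tumor. No marker passed the adjusted threshold, and the part of immune cells in the GBP levels was not tested.

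The other lists described the tissue. Fibroblast markers summed to 2480 to 2710 CPM in NaCl and 2780 to 3570 CPM in H89-treated tumors, endothelial markers to 98.2 to 165 and 83.2 to 126 CPM, and epithelial and colon carcinoma markers to 116 to 130 and 85.1 to 99.3 CPM. Of the 5 tested markers of the last list, 3 were higher (Krt8, Cdh1 and Lgals4) and 2 lower (Krt18 at a log2 fold change of -1.04 and Krt20 at -0.47). At an unadjusted p under 0.05 in edgeR, 0 were higher and 2 lower, where 13.1% and 11.9% of all tested genes were. The median log2 fold change of the 5 was 0.05. Krt20 made up most of that sum, at 103, 95 and 97.9 CPM in NaCl and 66.3, 81.4 and 65.8 CPM in H89-treated tumors. Skin and muscle next to the tumor were low: keratinocyte markers summed to at most 3.64 CPM, with Krt1 at 0 in all tumors, and adipocyte markers to at most 2.46 CPM. Skeletal muscle markers reached 16.3 CPM in H89-treated tumor 1 and at most 2.02 CPM in any other tumor. Dropping that tumor left 3 members in place of 6 higher at an unadjusted p under 0.05, where 1624 of 13079 tested genes were. The same count of 3 came from dropping NaCl tumor 2 (muscle sum 1.27 CPM) or H89-treated tumor 3 (1.06 CPM) instead. The part of muscle in the GBP levels was not tested.

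The genes whose pattern over the 6 tumors was most like the members' were found by the root mean square difference of centered log2(CPM + 0.5) from the members' mean, over 13108 genes that are not GBP genes. The 5 closest were Irgm2 (0.115), Tgtp2 (0.119), Il18bp (0.173), AW112010 (0.176) and Iigp1 (0.184). Irgm2, Tgtp2 and Iigp1 are immunity-related GTPases, Il18bp encodes the secreted decoy that binds interleukin-18, and AW112010 is an interferon-inducible transcript. Irgm2, the closest, was at 64.6, 51.9 and 18.2 CPM in NaCl and at 122, 56 and 126 CPM in H89-treated tumors. Iigp1 was at 98.8, 92.8 and 25.2 CPM against 259, 115 and 287 CPM. Among the members themselves the difference ran from 0.089 in Gbp5 to 0.283 in Gbp2, and 31 genes outside the family were at least as close as Gbp2. All are patterns over the same 6 tumors, and closeness of pattern is a description. Each member is part of the mean it was set against, which makes its difference smaller, while the other genes are not. Members and other genes are therefore not compared on equal terms.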

How the data were processed

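RNA of 6 CT26 tumors, 3 NaCl and 3 H89, was sequenced on a BGISEQ-500, and the authors deposited 1 table of tumors by genes. Its values, called TPM, were read as estimated counts because each tumor's values deposited by the authors summed to at least 27067349. The submitters' processing notes name kallisto, DESeq2 and GRCm38. Groups were taken from the sample labels. Columns were matched by gene symbol.

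The estimated counts were rounded, genes with a mean under 0.5 CPM were left out, and the remaining 13118 entered a quasi-likelihood fit of treatment (edgeR 4.0.16 under R 4.3.3, TMM scaling, glmQLFTest). Dividing the size of a log2 fold change by the square root of F gave its standard error, and p-values were adjusted by Benjamini-Hochberg over all tested genes. DESeq2 1.42.0, limma 3.58.1, other scalings and filters, a replicate block and leaving out each tumor were tried as alternatives. Single genes were also tested by an exact permutation test on log2(CPM + 0.5). Intervals of counting error were not computed, and precision is limited by 3 tumors in each group.

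The members and lists were chosen with earlier results of these data known. Named were all members, all other GBP genes, the 3 genes of each partner list with the smallest p and any past the adjusted threshold, and the 5 genes closest in pattern. Gbp6 was not analysed here.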

Additional observations from a re-analysis of the deposited data

How the results depend on the processing

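No member changed direction in any of 112 fits of single members under other settings, in which log2 fold changes ran from 0.68 to 1.86. The count of members past an adjusted p of 0.05, 0 in edgeR's quasi-likelihood test, was 2 without a filter on low counts (Gbp8 and Gbp9, adjusted p = 0.0422 and 0.0448), where 1.65% of 18837 genes passed, and 2 in DESeq2, where 1396 of 13118 passed in either direction. It was 0 under the other settings. At an unadjusted p under 0.05, 4 members were higher in DESeq2, where 12.1% of all genes were. The count was 6 with each other scaling or filter and with limma. In those settings the share of all genes ran from 9.84% (quantile normalization in limma) to 17.5% (total count only). With 1 tumor left out, that count ran from 3 to 7, the median log2 fold change from 0.99 to 1.77, the log2 ratio of summed CPM from 0.87 to 1.68 on chromosome 3 (1.27 with all tumors) and from 1.06 to 1.82 on chromosome 5 (1.47 with all tumors). With the replicate number as a block, 3 members were higher at an unadjusted p under 0.05, where 14% of all genes were, and 0 of 13118 genes passed the adjusted threshold. Same-numbered tumors did not deviate together (correlations 0.16, 0.06 and -0.02), and not every tumor correlated best with its own number. These deviations are from means of 3 tumors and offset each other within a group. The check therefore cannot decide whether the numbers are a pairing, and the labels do not state one. The cause of these shifts was not tested. With 3 tumors per group, an exact permutation p cannot go below 0.1.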

Other observations

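The mix of GBP transcripts within a cluster was not the same in all tumors. In NaCl tumor 3, Gbp2 made up 25.9% of all GBP counts of chromosome 3 and Gbp7 31.4%, whereas in the other 5 tumors Gbp2 made up 29.8% to 34.9% and Gbp7 18.5% to 26%. On chromosome 5, Gbp4 made up 54% in that tumor against 62.8% to 71.2% in the others, Gbp9 25.3% against 13% to 19.3%, and Gbp8 9.7% against 5% to 7.3%. These are shares of estimated counts, not scaled for transcript length, and they were not tested. Gbp10, by contrast, kept a share between 9.6% and 11.4% in all 6 tumors.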
